A study of Mus musculus with 16 samples.

Results

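The 10 genes described here are the transcription factors Sox1, Sox3, Pax6, Pax7, Dbx1, Dbx2, Irx3, Nkx6-1 and Nkx6-2 and the intermediate filament gene Nes (nestin), which are used as markers and patterning genes of neural progenitors. They were chosen by symbol among the RefSeq rows of the expression table and make up 10 of its 24169 genes. The table gives the expression level of each transcript in FPKM, in which the fragments assigned to a transcript are scaled by its length and by the number of mapped fragments of the library. The FPKM of the rows of a gene were summed.

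The RNA came from embryoid bodies (EBs), aggregates in which embryonic stem cells differentiate, grown for 4 days from R1 mouse embryonic stem (ES) cells without Lif, the factor that keeps ES cells undifferentiated. The day 0 samples were taken at this point, before retinoic acid (RA) was added, and the day 4 samples after a further 4 days with 2 µM RA. Each day had 2 RNA samples from repeats of the procedure, and each RNA sample was split into 4 vials, which gave 16 libraries. The vials received different mixes of synthetic mouse spike-in transcripts, except that mix 4 was a control without them. Either of 2 mixes of bacterial ERCC spike-in transcripts was also added to each vial. EBs of the later age without RA were not analysed here, so the effects of RA and of time in culture cannot be told apart.

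In the embryo, Sox1 and Sox3 are expressed in dividing neuroepithelial cells, and nestin is part of their cytoskeleton. Signals from the dorsal and ventral side of the neural tube and RA from the flanking mesoderm then divide these progenitors into domains. Pax7, Pax6, Irx3, Dbx1, Dbx2, Nkx6-1 and Nkx6-2 are homeodomain factors whose overlapping territories define the domains, and several of them repress each other. RA acts through receptors (RAR) that bind pairs of short DNA half-sites.

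Most of the 10 genes were close to the lower end of the scale on both days. Only Nes was at least 1 FPKM in both RNA samples of a day, whereas 8 of the 10 genes were below 1 FPKM in both RNA samples of day 0 and 9 of 10 at day 4. For comparison, 46.8% of all genes had a mean of at least 1 FPKM at day 0 and 45.7% at day 4. At day 4, 24 of the 80 values of these genes were listed at 0, against 10 of 80 at day 0. The name neural progenitor genes therefore describes what the genes are known for; it was not borne out by their levels in these EBs. The table is rounded to steps of 0.01 FPKM before scaling, so the values of several genes are a few such steps, and the number of fragments behind them is unknown. Fewer cells with a transcript and less transcript per cell cannot be told apart in bulk RNA.

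**Figure D1:**
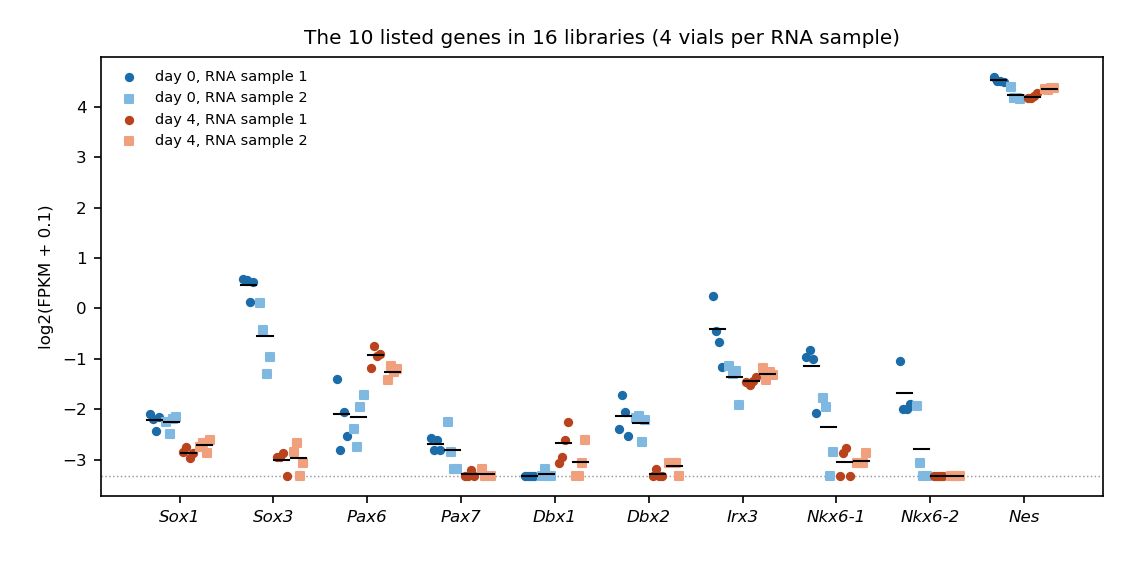
Level of each of the 10 genes as log2(FPKM + 0.1) in the 16 libraries, with a black line at the mean of the 4 vials of an RNA sample and a dotted line at 0 FPKM. Nes lies between 17.8 and 24.0 FPKM in all libraries. The vials of 9 of the 10 genes are spread more widely at day 0 than at day 4, with Dbx1 as the exception. Values listed at 0 have no spread, as for Nkx6-2 at day 4.

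Day 4 was compared with day 0 with limma on log2(FPKM + 0.1), each RNA sample as the mean of its 4 vials (2 against 2), with Benjamini-Hochberg adjustment over all 20496 genes tested. A gene with an adjusted p of at most 0.05 was called. Differences are on this scale, which understates the change of genes near 0. Of the 10 genes, 1 was higher at day 4 and 4 were lower, a total of 5, beside 30.5% of all genes called (16% higher and 14.5% lower). The median difference was -0.54 over the 10 genes and -0.02 over all genes. With the repeat of the procedure as a block, 2 were higher and 6 lower, and 10576 instead of 6253 genes were called. Without either RNA sample of day 4, limma called 0 of all genes (4935 and 4716 at an unadjusted p under 0.05), so no call below holds without both of them.

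Among the Sox factors, Sox3 had the largest difference of the 10 genes. It ranged from 0.305 to 1.41 FPKM over the 8 libraries of day 0 (median 0.987) and from 0 to 0.057 at day 4 (median 0.029). The libraries of the 2 days did not overlap. The RNA samples of day 0 were at 1.28 and 0.586 FPKM, and those of day 4 at 0.0238 and 0.0288. Sox3 was lower at day 4 by limma (log2 difference -2.94, SE 0.39, adjusted p = 0.0161). Sox1, the other pan-neural Sox gene of the list, was at 0.079 to 0.135 FPKM (median 0.119) at day 0 and at 0.028 to 0.065 FPKM (median 0.0435) at day 4. These libraries did not overlap either, and Sox1 was called lower (-0.55, SE 0.10, limma adjusted p = 0.0286). After correction for GC content, described below, its difference was -0.24 with an adjusted p of 0.574, and without RNA sample 1 of day 0 its adjusted p was 0.0758.

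Pax6, which marks a broad band of intermediate and ventral progenitors, was the gene called higher. Its day 0 libraries lay between 0.043 and 0.281 FPKM (median 0.116) and its day 4 libraries between 0.272 and 0.499 (median 0.348). The highest day 0 vial was above the lowest day 4 vial, while the RNA samples, at 0.135 and 0.125 FPKM on day 0 and 0.424 and 0.319 on day 4, were separate. The difference was 1.03 (SE 0.19, limma adjusted p = 0.0302). It was no longer called when any 1 of the 4 RNA samples was left out, with adjusted p between 0.0722 and 0.152.

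The table holds 5 RefSeq rows of Pax6, and the row that carried the signal was not the same on both days. NM_001244201, which GENCODE pairs with a transcript model that starts at chr2:105668900 (GRCm38, + strand), was above 0 in 7 of 8 day 0 libraries and held 95.9% of the Pax6 FPKM of that day, but 29.5% at day 4. NM_001244200, paired with a model that starts further downstream at chr2:105675513, was above 0 in 1 of 8 libraries at day 0 and in 7 of 8 at day 4, where it held 58.3%. Tested by row, NM_001244200 was called higher (1.59, SE 0.13, limma adjusted p = 0.0161 over 28213 transcripts) and NM_001244201 was not called (-0.17, SE 0.36, adjusted p = 0.742). In the fit by row, 18.9% of all transcripts were called (10.2% higher and 8.67% lower). RSEM divides reads shared between isoforms, and at these levels the division between the rows is uncertain. In the day 4 vial of RNA sample 1 with mix 1, for example, all of the Pax6 signal, 0.343 FPKM, was assigned to NM_001244201.

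Pax7 marks dorsal progenitors. It was at 0.01 to 0.111 FPKM (median 0.0425) at day 0 and at 0 to 0.01 FPKM at day 4, where 6 of 8 libraries were listed at 0. The libraries overlapped at 0.01 FPKM. Pax7 was called lower (-0.54, SE 0.07, limma adjusted p = 0.0150).

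The homeobox genes Dbx1 and Dbx2 mark the progenitors in the middle of the neural tube. Dbx2 was at 0.059 to 0.205 FPKM (median 0.119) at day 0 and at 0 to 0.019 FPKM (median 0.005) at day 4, without overlap. It was called lower (-1.0004, SE 0.10, limma adjusted p = 0.0102). Dbx1 was listed at 0 in 7 of 8 day 0 libraries and reached 0.01 FPKM in the other one, whereas at day 4 it was above 0 in 6 of 8 libraries, up to 0.111 FPKM. Its difference of 0.44 (SE 0.14) was not called (limma adjusted p = 0.0887); with the replicate block the adjusted p was 0.0126. The call for Dbx1 thus depended on the fit, and its day 4 RNA samples, at 0.0563 and 0.021 FPKM, differed from each other by 0.37 on the log2 scale.

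Irx3, an Iroquois factor of dorsal and intermediate progenitors, was at 0.164 to 1.09 FPKM (median 0.351) at day 0 and at 0.249 to 0.34 FPKM (median 0.282) at day 4. The libraries of the days overlapped, and the highest value came from the day 0 vial of RNA sample 1 with mix 1. The difference of -0.48 (SE 0.39, 95% interval -1.58 to 0.63) was not called (limma adjusted p = 0.399). The RNA samples of day 0 were at 0.650 and 0.287 FPKM, and the size of the difference rested on which was used. Without sample 1 of day 0 it was 0.000919, and without sample 2 it was -0.95. All Irx3 signal was in NM_008393, and NM_001253822 was listed at 0 in all libraries.

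Nkx6-1 and Nkx6-2 are factors of ventral progenitors. Nkx6-1 was above 0 in 7 of 8 libraries at day 0, with a range of 0 to 0.463 FPKM (median 0.175), and in 6 of 8 at day 4, with a range of 0 to 0.047 FPKM (median 0.019). Nkx6-2 was above 0 in 6 of 8 day 0 libraries, up to 0.383 FPKM (median 0.151), and listed at 0 in all 8 libraries of day 4, so no fold is given. The RNA samples of day 0 were far apart for both genes, at 0.354 and 0.0973 FPKM for Nkx6-1 and at 0.213 and 0.0455 FPKM for Nkx6-2. The differences of -1.29 (SE 0.44) and -1.09 (SE 0.40) were not called, with limma adjusted p of 0.0986 and 0.113. With the replicate block both were called lower, with adjusted p of 0.00257 and 0.00276. Their size rested on which RNA sample of day 0 was used: without sample 1 they were -0.69 and -0.54, and without sample 2 -1.89 and -1.65. Both were called in these fits (limma adjusted p of 0.0273 to 0.0376), whose error comes from the day 4 pair alone, at 0 in both samples for Nkx6-2, so these calls add no support.

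Nes was the abundant gene of the list. It was at 17.8 to 24.0 FPKM (median 21.6) at day 0 and at 17.9 to 20.7 FPKM (median 19.6) at day 4, and its difference was -0.10 (SE 0.18, 95% interval -0.60 to 0.40, limma adjusted p = 0.683). The libraries of the days overlapped, and with equal FPKM sums per library the difference was 0.17. By level, Nes stood first on both days and no library of another gene reached it. At day 0 the next 7 genes, Sox3, Irx3, Nkx6-1, Pax6, Nkx6-2, Dbx2 and Sox1, followed each other without a gap between the RNA samples of neighbours, and at day 4 Pax6 and Irx3 were above the remaining genes.

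The spread between vials of the same RNA was wider at day 0 for 9 of the 10 genes. The SD of log2(FPKM + 0.1) over the vials of an RNA sample at day 0 was 0.66 for Nkx6-1, 0.57 for Nkx6-2, 0.54 for Pax6, 0.49 for Irx3, 0.46 for Sox3, 0.33 for Pax7 and 0.31 for Dbx2, against 0.22, 0, 0.15, 0.08, 0.25, 0.07 and 0.10 at day 4. For Nes it was 0.09 and 0.04, for Sox1 0.15 and 0.10, and for Dbx1, the exception, 0.05 and 0.36. Values listed at 0 have no spread: Nkx6-2 was at 0 in all 8 day 4 libraries, and Dbx1 in 7 of 8 at day 0. The part of the level in these spreads was not tested. How many of all genes had a wider spread at day 0 was not computed. The GC content of the transcripts was 66.4% for Sox3, 64.3% for the main row of Nkx6-2, 62.5% for Irx3, 59.0% for Nkx6-1, 55.5% for Nes, 49.2% for Dbx2 and 45.7% for the main row of Pax6. At day 0 the spread was thus wide in the genes of highest GC content and also in Pax6, but narrow in Sox1 and Nes. To show the composition, the 90 bases of coding sequence within 1 exon with the most G and C are given for 6 genes (GENCODE transcripts, GRCm38), with runs of 6 or more G or C in capitals. They are chrX:60892331-60892420 (- strand), chr8:91801119-91801208 (- strand), chr5:101663757-101663846 (- strand), chr3:87971634-87971723 (+ strand), chr15:95654359-95654448 (- strand) and chr2:105683851-105683940 (+ strand).
Sox3: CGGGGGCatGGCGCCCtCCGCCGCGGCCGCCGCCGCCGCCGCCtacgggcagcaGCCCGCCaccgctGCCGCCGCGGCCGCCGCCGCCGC
Irx3: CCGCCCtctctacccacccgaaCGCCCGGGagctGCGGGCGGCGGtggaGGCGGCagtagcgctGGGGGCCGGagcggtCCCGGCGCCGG
Nkx6-1: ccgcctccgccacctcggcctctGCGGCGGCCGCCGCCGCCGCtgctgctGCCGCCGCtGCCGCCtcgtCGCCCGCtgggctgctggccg
Nes: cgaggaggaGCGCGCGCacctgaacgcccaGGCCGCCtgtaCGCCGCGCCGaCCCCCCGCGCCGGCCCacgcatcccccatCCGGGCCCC
Dbx2: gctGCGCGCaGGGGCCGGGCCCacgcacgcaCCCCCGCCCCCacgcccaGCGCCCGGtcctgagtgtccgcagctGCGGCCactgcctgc
Pax6: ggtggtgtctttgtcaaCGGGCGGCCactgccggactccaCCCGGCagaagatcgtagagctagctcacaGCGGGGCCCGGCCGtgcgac

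The G and C content of these stretches was 90%, 81.1%, 84.4%, 81.1%, 81.1% and 67.8%, so Nes and Dbx2 hold stretches as rich as that of Irx3. Over the whole table, the day 0 libraries differed from each other in the level of GC-rich transcripts. Per library, the median deviation of 527 transcripts with at least 60% GC was set against that of 3415 transcripts below 45% (mean of at least 1 FPKM). This difference was 2.23 to 2.46 on the log2 scale in RNA sample 1 of day 0. In RNA sample 2 it fell to -2.19 and -1.76 in the vials with mix 3 and mix 4, below the range of -1.52 to -0.35 in the day 4 libraries. The synthetic transcripts, added in equal amounts on both days, also moved with GC content: 15 of 17 with at least 55% GC were lower at day 4 (median -0.57), and 0 of 7 below 45% were lower (median 1.40). The level of GC-rich against GC-poor transcripts therefore differs with the day, the RNA sample and the vial. How much of each gene's difference this pattern accounts for was not tested beyond the correction that follows.

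**Figure D2:**
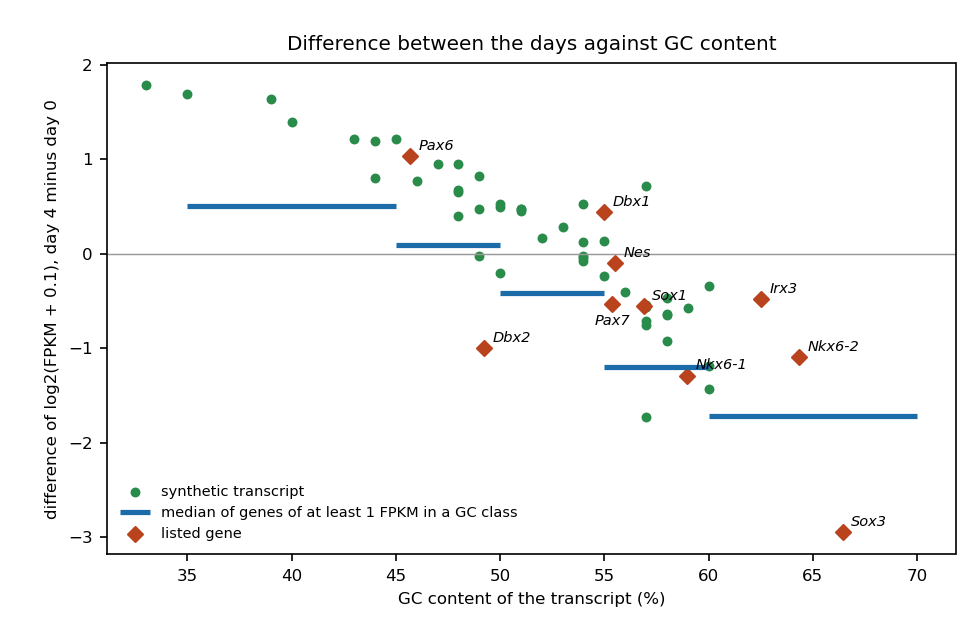
Difference between the days (log2(FPKM + 0.1), day 4 minus day 0) against the GC content of the transcript for the 10 genes (diamonds, main row of each gene), 47 synthetic transcripts (circles, mean of 6 vial pairs) and the median of all genes of at least 1 FPKM per GC class (lines). The medians go from 0.50 below 45% GC to -1.72 at 60% and above, and Dbx2 lies below the line of its class while Dbx1 lies above it. Dbx1 and Dbx2 were below 1 FPKM on both days, where the offset of 0.1 shrinks differences. The lines are therefore no like-for-like reference for them.

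The differences were computed again after the FPKM had been corrected for GC content in each library. The correction was held constant beyond the centres of the outer GC bins. It may therefore fall short for the most GC-rich genes, such as Sox3 (66.4%) and Nkx6-2 (64.3%). Sox3 (-2.12, limma adjusted p = 0.0111), Pax7 (-0.34, adjusted p = 0.00982) and Dbx2 (-0.98, adjusted p = 0.00247) remained lower, and Pax6 remained higher (0.93, adjusted p = 0.0161). Dbx1 was then called higher (0.52, adjusted p = 0.0413) and Sox1 was not called. Irx3 and Nes turned to 0.53 and 0.64 but were not called, with adjusted p of 0.386 and 0.293. With the replicate block added to the correction, Nes (0.64, limma adjusted p = 0.0331) and Nkx6-2 (-0.46, adjusted p = 0.0411) were called. After the GC correction alone, 27.6% of all genes were called higher and 24.4% lower, so 2 and 3 of the 10 genes are near that background.

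Without the 2 vials of day 0 with mix 3 and mix 4 of RNA sample 2, 1 gene was higher and 6 were lower, beside 27.1% and 33.6% of all genes. Nkx6-1 (-1.53, limma adjusted p = 0.0141) and Nkx6-2 (-1.29, adjusted p = 0.0204) were then called. With both changes, an alternative chosen after seeing the data, Irx3 and Nes were called higher (1.08 and 1.11, adjusted p of 0.0192 and 0.00960) and Sox1 was at 0.15 (adjusted p = 0.384). The direction of Irx3 and Nes thus varied with the GC correction and that of Sox1 only when both choices were changed. Sox3, Pax7, Dbx2, Nkx6-1 and Nkx6-2 were below 0 and Pax6 and Dbx1 above 0 in these 4 fits. The correction divides each value by a factor, so a value listed at 0 stays at 0. Nkx6-2 was at 0 in all 8 day 4 libraries, so its sign could not change. Pax7 (6 of 8 at day 4), Dbx2 (4 of 8 at day 4) and Dbx1 (7 of 8 at day 0) also had values at 0. This limits how far the correction could move them.

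**Figure D3:**
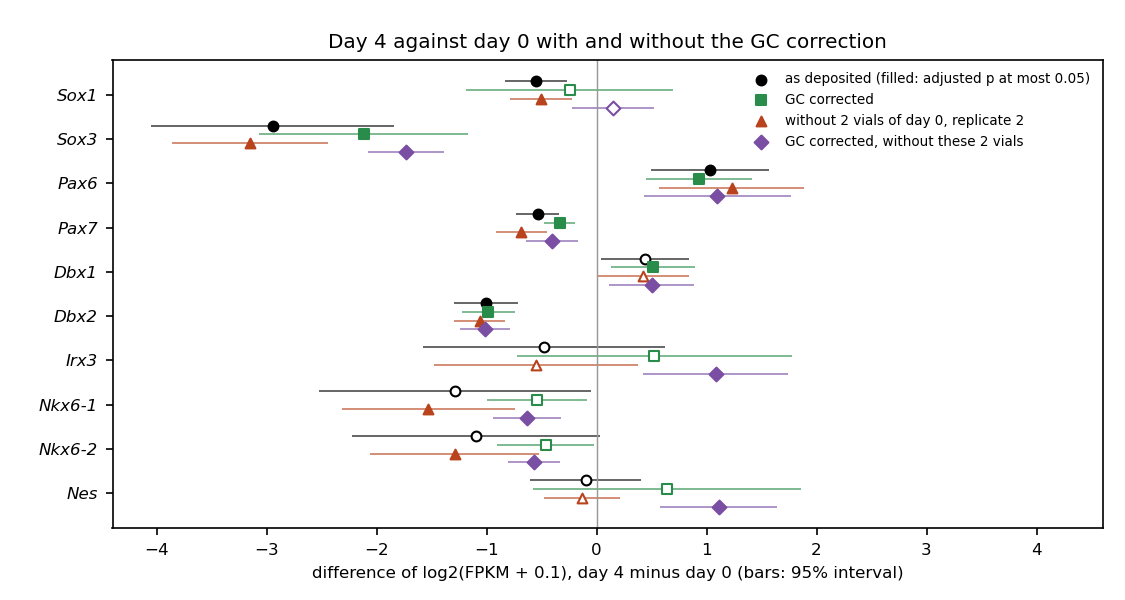
Difference between day 4 and day 0 for each of the 10 genes in 4 fits, with the 95% interval as a bar and filled symbols for an adjusted p of at most 0.05. Sox3, Pax7 and Dbx2 stay below 0 and Pax6 above 0 with filled symbols in all 4 fits, while Irx3 and Nes change side with the GC correction. Values listed at 0 stay at 0 under the correction, so genes with many such values can hardly change side.

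The promoter windows of RefSeq (GRCm38.p6, 250 bases before to 50 after a gene's start) were searched for RAR half-sites, since RA was the treatment. Windows were found for 9 of the 10 genes (10 windows, of which 2 belong to Pax6). A pair of half-sites in the same direction with 5 bases between them, each being AGGTCA, the variant AGTTCA or the further variant GGTTCA and read on both strands, was present in 20 of 32851 windows (0.0609%) and in 0 of the 10. Single half-sites, for which AGGTCA and the variant AGTTCA were searched on both strands, were present in 27.7% of all windows and in 3 of the 10, those of Nes, Pax7 and Dbx1. The window of Rarb, a receptor gene that rose from 0.195 to 107 FPKM (8.50, SE 0.17, limma adjusted p = 0.0046), holds such a pair. So does the window of Cyp26a1, an enzyme gene of RA breakdown that fell from 50.7 to 8.88 FPKM (-2.50, SE 0.15, adjusted p = 0.0047), and which was named after its values were seen. Both are printed for comparison. Each line gives 30 bases around the site, 5′ to 3′ on the strand of the gene, with the half-sites in capitals: chr14:16575507-16575536 (- strand) for Rarb, chr19:37697769-37697798 (+ strand) for Cyp26a1, chr3:87970980-87971009 (+ strand) for Nes, chr4:139833130-139833159 (- strand) for Pax7 and chr7:49636917-49636946 (- strand) for Dbx1. All lie upstream of the start used for the window, but those of Rarb, Cyp26a1 and Pax7 lie within the annotated extent of the gene, which has a start further upstream.
Rarb: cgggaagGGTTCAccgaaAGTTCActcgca
Cyp26a1: ttaaagaTGAACTttgggTGAACTaatttg
Nes: tgtgtgttgcacTGAACTctaaagggttaa
Pax7: tgtttgtttgttTGAACTtccttgtcgcca
Dbx1: ggagaactttgtTGAACTtcattgtcagag

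The single half-sites of Nes, Pax7 and Dbx1 read TGAACT on the strand of the gene, the reverse complement of AGTTCA. Of these genes Nes was not called, Pax7 was lower and Dbx1 was called only in some fits, so the 3 genes had no common direction. A match of this kind describes the sequence and is not evidence of binding.

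Other genes of the same pathway were read from fixed lists in the same fit. Of 22 other progenitor domain factors, 3 were higher, 5 lower and 14 not called (median difference -0.05). Among those lower were 2 homeobox genes that are also active outside the nervous system. Msx1 was at 31.2 FPKM at day 0 and 1.37 at day 4 (-4.36, SE 0.32, limma adjusted p = 0.00579), and Msx2 at 38.7 and 2.79 (-3.76, SE 0.18, adjusted p = 0.0046). The Iroquois gene Irx5, a relative of Irx3, rose from 0.091 to 0.374 FPKM (1.32, SE 0.17, adjusted p = 0.0151). The ventral factors Nkx2-2 and Olig2, chosen here after their values were seen, were at 0.00375 and 0.0025 FPKM at day 0 and at 0 and 0.0131 FPKM at day 4 and were not called.

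Of 21 pan-neural progenitor genes, 8 were higher, 6 lower and 7 not called (median -0.21). Lhx2, a LIM homeodomain factor of forebrain and eye progenitors that is also expressed outside the nervous system, rose from 0.142 to 20.8 FPKM (6.43, SE 0.22, limma adjusted p = 0.0046), and the POU factor Pou3f1 from 0.647 to 4.74 FPKM (2.70, SE 0.24, adjusted p = 0.00773). The receptor gene Notch1 fell from 4.08 to 0.245 FPKM (-3.45, SE 0.54, limma adjusted p = 0.0215). The zinc finger gene Zic2 fell from 3.23 to 0.0719 FPKM (-4.26, SE 0.28, adjusted p = 0.00527), although it was not called after GC correction (adjusted p = 0.0575). Sox2, a close relative of Sox1 and Sox3 also needed by pluripotent cells, was named after its values were seen: it was at 7.20 FPKM at day 0 and 1.46 at day 4 (-2.20, limma adjusted p = 0.0157).

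Of 18 patterning signals and receptors, 3 were higher, 5 lower and 10 not called (median 0.02). Besides Rarb, the RA-producing enzyme Aldh1a2 rose from 0.853 to 11.9 FPKM (3.68, SE 0.27, limma adjusted p = 0.00577) and the ventral signal Shh from 0.259 to 1.26 FPKM (1.90, SE 0.36, adjusted p = 0.0310). The growth factor genes Fgf15 and Fgf8 fell, from 31.1 to 0.0929 FPKM and from 9.42 to 0.0035 FPKM. Of 22 genes of the neurons that arise from the domains, 1 was higher, 6 lower and 15 not called (median -0.49); Tubb3, a tubulin of young neurons, was at 12.03 FPKM at day 0 and 0.761 at day 4 (-3.66, SE 0.57, adjusted p = 0.0212).

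**Figure D4:**
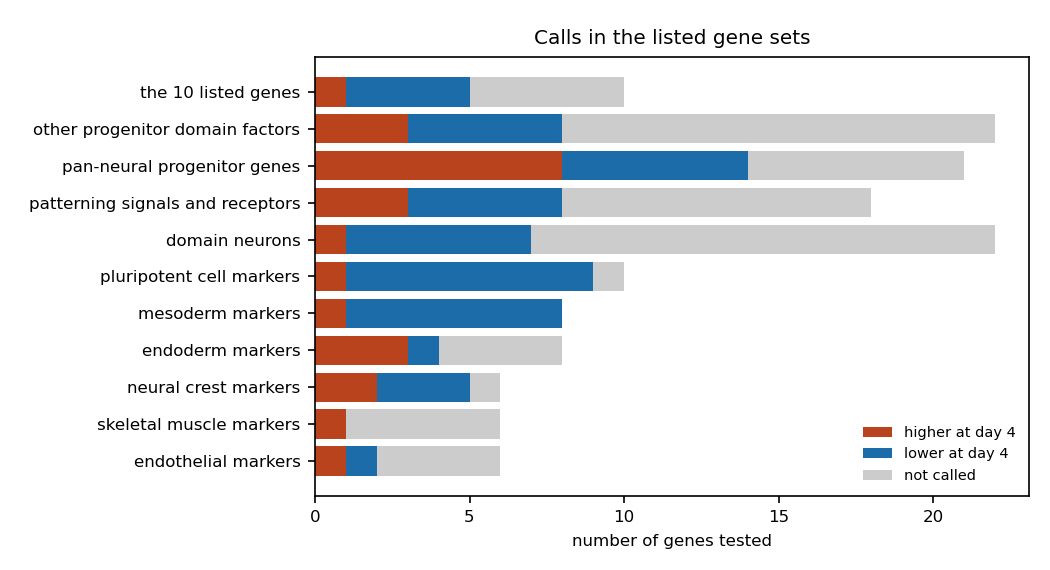
Number of genes of each list called higher, called lower or not called at day 4 by limma (adjusted p of at most 0.05). All 8 mesoderm markers were called, 7 of them lower, while 14 of the 22 other progenitor domain factors were not called.

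Markers of other cell types were measured beside these genes. Of 10 pluripotent cell markers 8 were lower and 1 higher, and their summed level went from 102 to 209 FPKM over the day 0 libraries to 8.29 to 13.2 FPKM over those of day 4. Of 8 mesoderm markers 7 were lower and 1 higher, with sums of 176 to 228 and 19.3 to 22.1 FPKM, and the defining gene T (brachyury) had means of 67.0 and 0.019 FPKM. Of 8 endoderm markers 3 were higher and 1 lower, with sums of 17.2 to 20.9 and 75.9 to 78.7 FPKM, of which Gata6 gave 54.4 FPKM at day 4. Sums went from 29.9 to 33.5 and from 29.3 to 32.9 FPKM for 6 neural crest markers (2 higher, 3 lower). Most of these sums came from Ets1, which was named after its values were seen and was not called (30.3 and 23.8 FPKM). Snai2 rose from 1.89 to 7.21 FPKM (1.89, SE 0.24, limma adjusted p = 0.0142), and Sox10 had means of 0.111 FPKM at day 0 and 0.0141 at day 4. Sums were 12.99 to 32.8 and 31.1 to 39.0 FPKM for 6 endothelial markers (1 higher, 1 lower), and 0.354 to 5.66 and 0.583 to 1.18 FPKM for 6 skeletal muscle markers (1 higher, 0 lower). The part of these cell types in the differences of the 10 genes was not tested.

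The 5 genes outside the list whose log2(FPKM + 0.1) followed the mean of the 5 called genes most closely over the 16 libraries were Arhgap17, Rbm8a, Pxdc1, Plcxd1 and Ctnna1 (Pearson r from 0.979 to 0.983, among genes with a mean of at least 1 FPKM). All 5 had a lower mean at day 4, for example Plcxd1 with 2.26 and 0.0784 FPKM. The profile averaged 4 genes called lower and 1 called higher, so a lower mean at day 4 follows from how these genes were chosen. The 16 points share RNA samples and the GC pattern of their libraries, so the correlation is given as a description.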

How the data were processed

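RNA of 2 RNA samples per day, each split into 4 vials, was sequenced by the authors, who aligned the reads with Bowtie2 2.1.0 to RefSeq transcripts (mm10) and the spike-in sequences, quantified each isoform with RSEM 1.2.18 and deposited FPKM scaled by a trimmed-mean (TMM) factor per library. The submitters' processing notes also name TopHat2 2.0.10. The deposited values of a library are multiples of 0.01 FPKM times its factor, which gave factors of 0.928 to 1.13. The FPKM sum per library was 411090 to 622888, with 20555 to 22156 transcripts above 0. Counts are not in the table, so depth per value is unknown and no counting interval or floor is given.

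Columns were assigned by sample titles (0 without a sample). Of 33702 RefSeq rows, 99.2% had a symbol and 97.4% a GC content from transcript sequences. Vials were averaged, FPKM summed per gene, and log2(FPKM + 0.1) was fitted with limma 3.58.1 (R 4.3.3; eBayes with a trend), leaving out genes at 0 in all libraries. An exact permutation test of 2 against 2 cannot go below p = 0.333. GC correction set the medians of 20 GC bins equal in each library, held constant beyond the centres of the outer bins (13893 transcripts). Python 3.11.15, numpy 2.4.6, pandas 2.3.3 and matplotlib 3.10.9 were used. GC content of the spike-ins came from the study's design tables and served only to group them.

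The replicate numbers, from the study's sample list and not from the labels, mark repeats of the procedure; deviations from the day means correlated between the days (r = 0.768 over 11584 genes, 0.54 after GC correction), so the fit with a replicate block is printed where it changes a call. The study calls the RNA samples of a day biological replicates, obtained by repeating the procedure. The labels themselves do not say that the samples are separate cultures, and p-values measure the spread between these samples.

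The members and gene lists were chosen with earlier results of these data known. The text names all 10 members and, from each list, called genes among the 3 with the largest difference in each direction, and the 5 genes most alike; other names are said to be chosen later. One gene that this rule names is not reported here. On simulated data for this comparison (20496 genes, 200 changed), 61% of changes of log2 2 and 96% of log2 4 were recovered, with 9 false calls (5.42% of calls). The changed genes were drawn from those above 1 FPKM at day 0, a level that only Nes of the 10 genes reached. The noise was independent between samples, without a shared GC or replicate pattern. These rates therefore do not describe the other listed genes. The alternatives were other pseudocounts, filters, scalings, GC correction, a replicate block, the vials used and the RNA samples left out.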

Additional observations from a re-analysis of the deposited data

Results flagged for a closer look

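Over the 8 libraries of a day, the highest and the lowest value of each of the 10 genes were set against the rest by Dixon's criterion in 19 groups with any spread, and 1 stood apart: Dbx1 at day 0 was at 0.01 FPKM in the vial of RNA sample 2 with mix 2 and listed at 0 in the other 7. This value is 1 rounding step of the table, and with the other 7 at 0 any value above 0 would have stood apart. Chance alone marks about 1 in 20 groups of normally distributed values. That rate does not hold for a group of rounded values that are mostly 0.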

How the results depend on the processing

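The comparison rests on 2 RNA samples a day. When 1 of the 4 was left out, the number of genes called by limma ranged from 0 to 9222 (0 without either day 4 sample, with 4935 and 4716 genes at an unadjusted p under 0.05) and of transcripts from 0 to 7795 (0 without day 0 sample 1 or either day 4 sample, with 11394, 5766 and 5476 at an unadjusted p under 0.05). Of the 10 genes, 0 were then called higher, and 0 to 7 lower; 6 to 8 had an unadjusted p under 0.05. The lone sample is assumed to vary like the other day. Irx3 ranged from -0.95 to 0.000919 and Nes from -0.24 to 0.0461 in these fits.

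The number of genes called, 6253, became 4156 with genes of at least 1 FPKM, 9419 with 16 libraries and an estimated vial correlation, 1411 with the mix 4 vials, 12432 without the mix 3 and 4 vials of day 0 sample 2, 10662 with GC correction, 10576 with the replicate block, 11687 with both GC correction and replicate block, and 13077 with GC correction and without the 2 vials, an alternative chosen after seeing the data. The 5321 transcripts called became 10909, 298, 14423, 10169, 10050, 10602 and 14708 with these settings, from the vial correlation on.

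Of the 10 genes, the number called higher was 1, beside 30.5% of all genes called in either direction. It became 2 with a pseudocount of 0.01 (31.9% of all genes), with GC correction (52.0%) or with the replicate block (51.6%). With both GC correction and block it was 3 (57.0%), and with GC correction without the 2 vials it was 4 (63.8%). With no filter on low values (17.4%) or the mix 4 vials (6.88%) it was 0. The number lower was 4 and became 0 with the mix 4 vials (4 at an unadjusted limma p under 0.05). With genes of at least 1 FPKM, 1 of the 10 was tested and 0 were called, also at an unadjusted p under 0.05. Sox1 was lost with a pseudocount of 0.01 (adjusted p = 0.0548) and with equal FPKM sums (0.0506), Sox3 with a pseudocount of 1 (adjusted p = 0.0543), and Sox3 and Pax6 without the filter (0.0512 and 0.0538).

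Nes turned to 0.0214 without the TMM factor, 0.0194 with equal medians, 0.17 with equal FPKM sums, 0.64 with GC correction (with the block, adjusted p = 0.0331) and 1.11 with GC correction without the 2 vials. Irx3 turned to 0.53 with GC correction, with or without the block, 0.20 with the mix 4 vials and 1.08 with GC correction without the 2 vials, where Sox1 turned to 0.15. The cause was not tested. Over the 10 genes, 133 of the repeated differences kept their direction and side of the threshold, 25 lost a call, 20 gained one and 13 changed direction. The genes of the other lists called higher went from 24 to 40 with GC correction and block and to 46 with GC correction without the 2 vials. The share of all genes called in either direction went from 30.5% to 57.0% and 63.8% in these fits. The low FPKM and unknown depth limit all values below 0.1 FPKM.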
